A study of Mus musculus with 8 samples.

Results

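The 10 genes described here encode the activator protein 1 (AP-1) transcription factors of the Fos family (Fos, Fosb, Fosl1, Fosl2) and the Jun family (Jun, Junb, Jund), with Atf3, Egr1 and Ier3 as further immediate early genes. Each had 1 probe set annotated with its symbol alone, so all 10 were measured, among 19935 genes in all. They were compared in mouse skin between 4 wild-type samples and 4 Adam10 knockout samples, 1 Affymetrix Mouse Gene 1.0 array each. The knockouts are titled cKO, commonly short for conditional knockout. The strain, the age, the deleted exons and the cells in which Adam10 was deleted are not stated by the labels, and the material is labelled both as skin and as primary skin cells. Values are log2 intensities. Their level depends on the probes, so levels are not ranked between genes, and a difference between a pair of genes is read only for how it changes between the genotypes.

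AP-1 is a dimer of basic leucine zipper (bZIP) proteins that binds a short palindromic DNA element. Jun proteins pair with themselves or with Fos proteins, whereas Fos proteins need a Jun or ATF partner. Many of these genes are switched on within minutes of growth factor, wound or stress signals through mitogen-activated protein kinases (MAPK), and are switched off again soon after. In epidermis the dimers take part in the control of growth and differentiation genes of keratinocytes. Atf3 encodes a stress-induced bZIP relative that can pair with Jun proteins, Egr1 a zinc finger factor induced through serum response elements, and Ier3 a small protein of the early response that affects survival signalling.

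The 250 bases before the annotated start of Atf3, Jun, Fos and Junb are shown because the first pair were higher in the knockout and the second pair did not pass the test, and because Jun and Atf3 are known to be bound by AP-1 and ATF dimers themselves. The windows come from RefSeq on build GRCm38.p6, which held 8 of the 10 members, and are written 5′ to 3′ on the strand of the gene. Capitals mark matches on either strand to 1 of 5 motifs. These were TGACTCA (the AP-1 element), TGACGT (the core of the cAMP response element, which can lie inside longer ATF sites), TGACATCA (an AP-1 and ATF variant), TATAAA, and the CArG box of serum response factor.
Atf3 (chr1:191183334-191183583, minus strand): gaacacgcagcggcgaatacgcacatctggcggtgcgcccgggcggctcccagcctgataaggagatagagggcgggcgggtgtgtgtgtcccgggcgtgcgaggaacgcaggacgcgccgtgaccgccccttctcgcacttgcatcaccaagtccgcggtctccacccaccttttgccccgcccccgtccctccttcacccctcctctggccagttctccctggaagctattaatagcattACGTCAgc
Jun (chr4:95052223-95052472, minus strand): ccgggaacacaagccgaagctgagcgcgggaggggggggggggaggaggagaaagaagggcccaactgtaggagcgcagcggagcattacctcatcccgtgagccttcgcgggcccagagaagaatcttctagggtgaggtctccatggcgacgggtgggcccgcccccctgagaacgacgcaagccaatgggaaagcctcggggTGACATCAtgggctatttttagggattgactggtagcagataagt
Fos (chr12:85473640-85473889, plus strand): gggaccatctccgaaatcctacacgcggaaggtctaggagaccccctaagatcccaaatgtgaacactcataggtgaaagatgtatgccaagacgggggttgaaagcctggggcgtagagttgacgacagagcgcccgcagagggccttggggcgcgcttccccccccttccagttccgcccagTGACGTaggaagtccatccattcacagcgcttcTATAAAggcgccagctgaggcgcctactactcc
Junb (chr8:84978749-84978998, minus strand): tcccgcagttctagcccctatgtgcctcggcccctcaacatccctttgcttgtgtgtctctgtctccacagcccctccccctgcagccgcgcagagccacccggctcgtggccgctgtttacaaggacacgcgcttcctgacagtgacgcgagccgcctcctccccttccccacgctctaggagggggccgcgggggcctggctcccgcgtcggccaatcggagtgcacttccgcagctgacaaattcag
The TGACGT core was found in Atf3, on the opposite strand from 8 to 3 bases before the start, and in Fos from 66 to 61 bases before it. Of 32851 windows of the same length, 6.47% held it. Jun held TGACATCA from 45 to 38 bases before the start, a match found in 2.93% of windows. Fos also held TATAAA from 33 to 28 bases before the start (12.4% of windows). The 5 other members with a window (Fosb, Fosl2, Junb, Jund and Ier3) held none of the 5 motifs in it. The Fosb window (chr7:19310046-19310295, minus strand) overlaps the annotated gene, which reaches to 19310118, so it does not lie wholly before the gene. TGACTCA was present in 4.46% of all windows and the CArG box in 1.47%, and neither was in a member's window. These letters are a description of the sequences and do not show that a factor was bound.

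Adam10 itself was lower in the knockout arrays, with a mean of 7.28 ± 0.15 in the wild-type group and 6.92 ± 0.12 in the knockout group (SD, n = 4). The fold was 0.780 (exact two-sided permutation p = 0.0286), but Adam10 missed the threshold over all genes (limma adjusted p = 0.064). Its groups did not overlap, as for 18.1% of all genes, but the closest arrays were only 0.019 apart. Keratinocyte markers were bright on all arrays, with Krt14 between 11.04 and 12.12. Wild-type array 4, and to a lesser degree wild-type array 3, held more RNA of other tissue. The mean of 10 skeletal muscle markers was raised by 3.21 over its average across the 8 arrays on wild-type array 4 and by 0.79 on array 3, against -0.89 to -0.42 on the other 6. In such bulk samples, fewer cells of a type and less RNA per cell cannot be told apart. The labels name separate samples without saying that each is a separate animal, so the p-values measure the spread between these samples.

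AP-1 and immediate early genes were mostly higher in Adam10 knockout skin. Of the 10 members 7 rose (limma, adjusted p under 0.05 over all genes) and 0 fell, where 8.75% of all genes passed, 6.41% with higher and 2.34% with lower values in the knockout. Of the brighter 9968 genes, whose mean level was the median or more, 12.0% rose. The rises ran from 1.54-fold for Jund to 2.54-fold for Atf3, and 2 of 4 Fos family genes, 2 of 3 Jun family genes and all 3 other genes passed. The same 7 members had no overlap between the groups, which was seen for 18.1% of all genes, and with higher knockout values for 12.2%. The median change of the 10 members was 0.76 on the log2 scale, against 0.0027 for all genes and 0.11 for the brighter 9968.

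**Figure D1:**
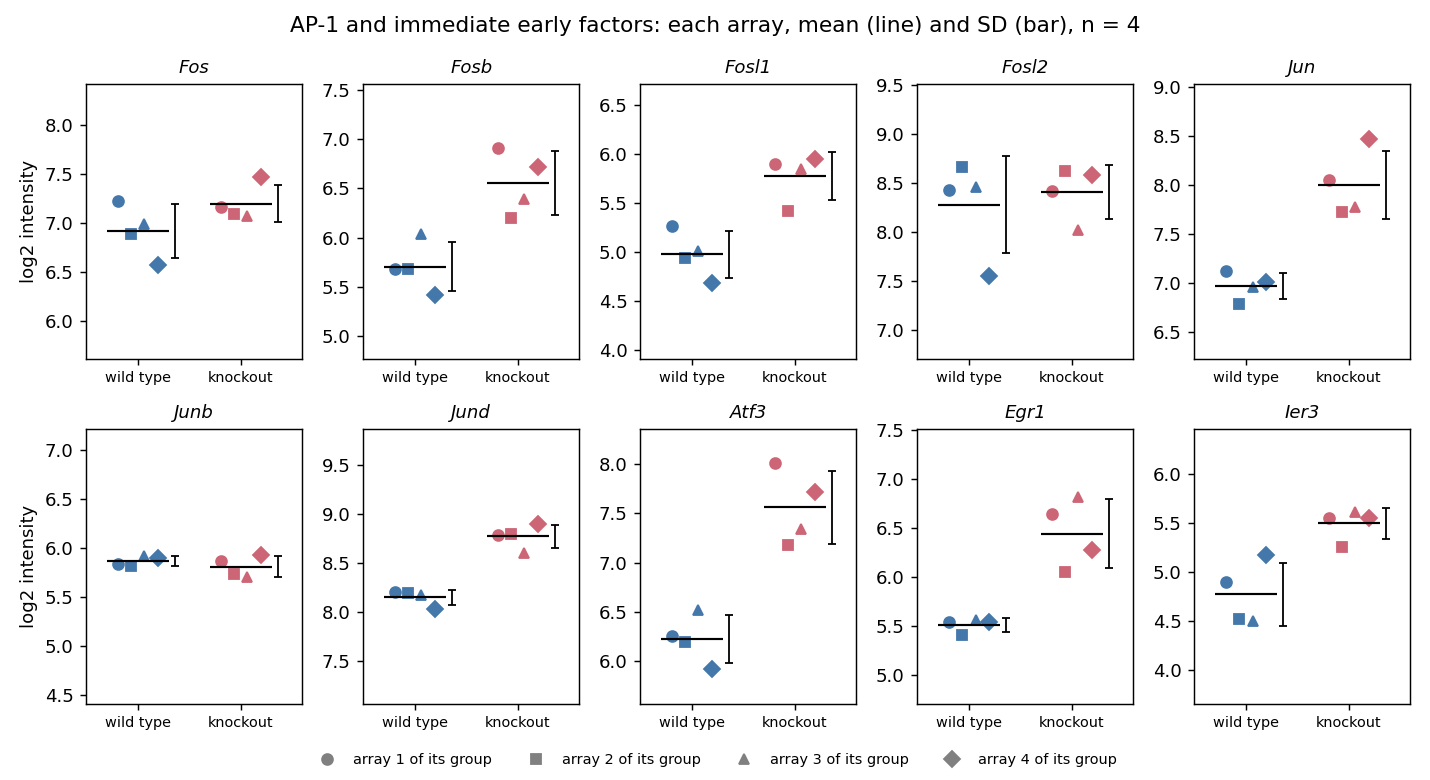
Log2 intensity of each of the 10 genes on each array, wild type (blue) and knockout (red), with the mean as a line and the SD as a bar (n = 4); all panels span the same range of log2 units. Fosb, Fosl1, Jun, Jund, Atf3, Egr1 and Ier3 lay higher on all 4 knockout arrays than on any wild-type array, while Fos, Fosl2 and Junb overlapped.

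Among the Jun proteins, which can form AP-1 alone, Jun rose most. Its values on wild-type arrays 1 to 4 were 7.12, 6.79, 6.96 and 7.02, and on knockout arrays 1 to 4 they were 8.05, 7.72, 7.77 and 8.47. Every knockout array was above every wild-type array by at least 0.60, and knockout array 4 was the highest. The change was 1.03 on the log2 scale (SE 0.16, adjusted p = 0.0056), or 2.04-fold. Jund, the family member usually expressed without a stimulus, read 8.21, 8.19, 8.17 and 8.03 in wild type and 8.78, 8.79, 8.60 and 8.90 in knockout. Its arrays lay close together, with SDs of 0.079 and 0.12. The rise of 0.62 (SE 0.096, adjusted p = 0.0054) was the smallest of the 7. Junb, often an opponent of Jun in growth control, lay at 5.83, 5.82, 5.91 and 5.90 in wild type and 5.87, 5.74, 5.70 and 5.93 in knockout. The groups overlapped, and the change was -0.06 with a 95% interval from -0.26 to 0.14 (adjusted p = 0.72, exact permutation p = 0.37).

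Of the Fos proteins, the partners of Jun in the dimer, Fosb and Fosl1 rose. Fosb read 5.68, 5.68, 6.03 and 5.42 in wild type and 6.92, 6.20, 6.40 and 6.72 in knockout. The closest arrays, wild type 3 and knockout 2, were 0.16 apart. Its change was 0.85 (SE 0.18, adjusted p = 0.017). Fosl1, which encodes Fra-1, a factor associated with wounded and invasive epithelium, read 5.26, 4.94, 5.01 and 4.68 in wild type and 5.90, 5.41, 5.85 and 5.94 in knockout. It rose by 0.80 (SE 0.15, adjusted p = 0.013), with knockout array 2 again the lowest of its group. Without wild-type arrays 3 and 4 together its change was 0.67 and the call was lost (adjusted p = 0.056).

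Fos and Fosl2 did not pass. Fos, the classical immediate early partner of Jun, lay at 7.23, 6.89, 6.99 and 6.57 in wild type and 7.17, 7.09, 7.07 and 7.47 in knockout. Wild-type array 1 was above 3 of the knockout arrays, and the change was 0.28 with a 95% interval from -0.05 to 0.61 (adjusted p = 0.27, exact permutation p = 0.14). Fosl2, which encodes Fra-2, lay at 8.43, 8.67, 8.46 and 7.56 in wild type and 8.42, 8.62, 8.02 and 8.58 in knockout. The low wild-type value was on array 4, and the change of 0.13 had a 95% interval from -0.38 to 0.64 (adjusted p = 0.76, exact permutation p = 0.71). Without wild-type array 4 it was -0.11, and it was also below 0 without wild-type arrays 3 and 4, so its direction is not settled.

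Atf3 had the largest change of the 10. It read 6.26, 6.19, 6.51 and 5.92 in wild type and 8.01, 7.18, 7.34 and 7.72 in knockout, so that the lowest knockout array exceeded the highest wild-type array by 0.67. The change was 1.34 (SE 0.19, adjusted p = 0.0038), which was rank 43 among all genes ordered by the size of their rise. Egr1 read 5.54, 5.41, 5.56 and 5.54 in wild type and 6.64, 6.05, 6.81 and 6.27 in knockout. The wild-type arrays were nearly alike (SD 0.070) and the knockout arrays spread more widely (SD 0.35), with a change of 0.93 (SE 0.16, adjusted p = 0.0074). Ier3 read 4.90, 4.52, 4.50 and 5.17 in wild type and 5.55, 5.26, 5.62 and 5.55 in knockout. Only 0.087 separated its groups, and its rise of 0.72 (SE 0.16, adjusted p = 0.022) lost the call without wild-type array 2 or 3 and when knockout array 1 or 3 was left out (adjusted p = 0.062 to 0.068). The 6 other genes that rose passed in each of the 8 fits with 1 array left out.

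**Figure D2:**
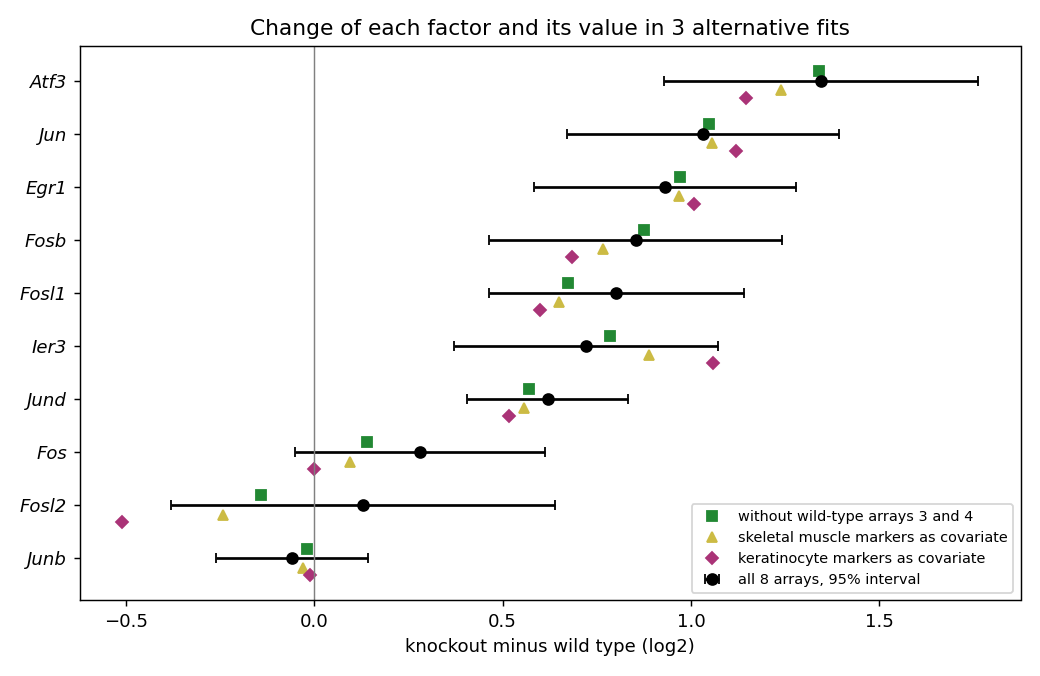
Log2 change (knockout minus wild type) of each gene with its 95% interval in limma (black, all 8 arrays), and the estimate in 3 alternative fits. Atf3, Jun and Egr1 lay between 0.97 and 1.34 when wild-type arrays 3 and 4 were left out. The estimate for Fosl2 was below 0 in all 3 alternatives.

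Whether genes of 1 family changed unequally was tested on the difference of their log2 values within each array, which removes what an array shares. Of 9 pairs, 6 in the Fos family and 3 in the Jun family, 4 separated the genotypes without overlap at the smallest exact two-sided permutation p that 70 assignments allow, 0.0286. Adjusted over the 9 pairs these stood at 0.064, so 0 of the 9 passed. A pair that separates alone cannot pass this adjustment from 0.0286, however large its change. The count therefore does not show that family members changed equally. Jun minus Junb went from 1.11 ± 0.14 in wild type to 2.20 ± 0.25 in the knockout (SD, n = 4), and Junb minus Jund from -2.28 ± 0.12 to -2.96 ± 0.067. Fos minus Fosb went from 1.22 ± 0.25 to 0.64 ± 0.28, and Fos minus Fosl1 from 1.95 ± 0.042 to 1.42 ± 0.22. Jun minus Jund overlapped between the groups (change 0.41, adjusted p = 0.086), as did Fosb minus Fosl1 (change 0.051, adjusted p = 0.69). The pairs that hold Fosl2 also overlapped.

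**Figure D3:**
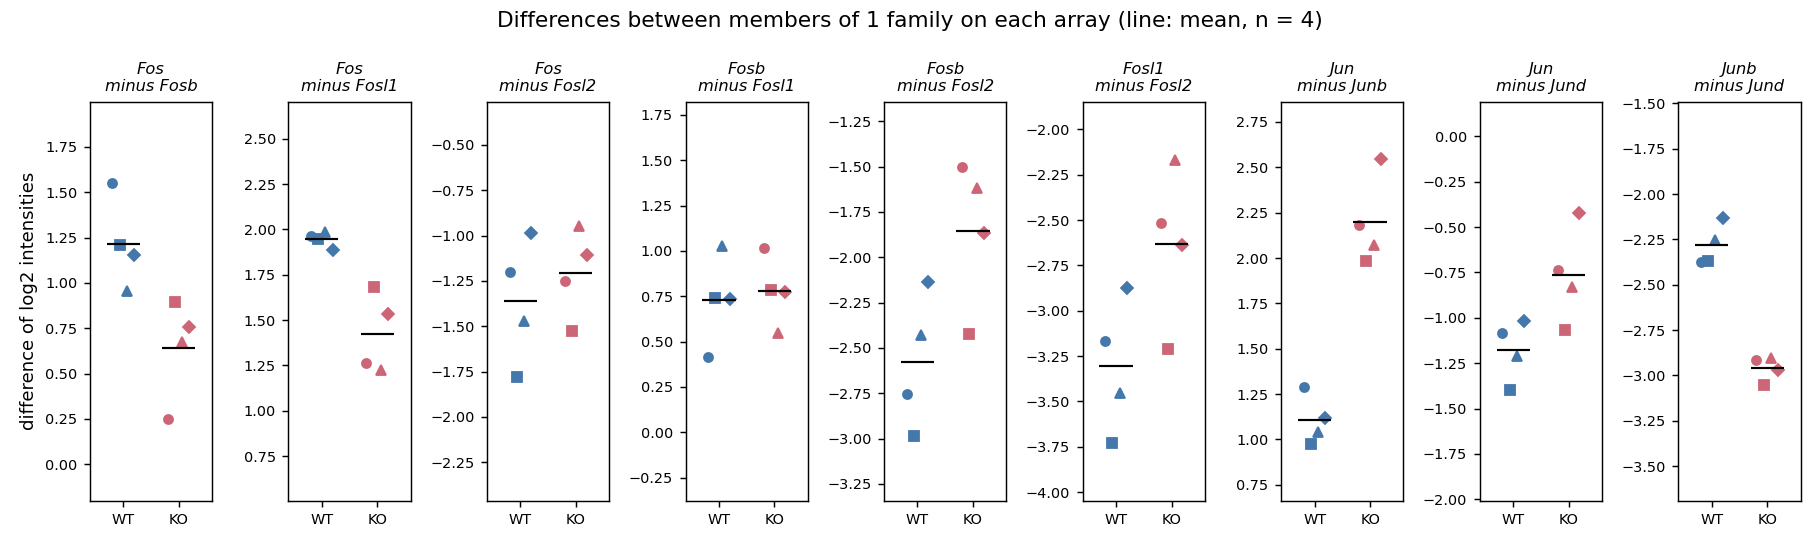
Difference of log2 intensities between members of 1 family on each array, wild type (WT, blue) and knockout (KO, red), with the mean as a line (n = 4); marker shapes stand for arrays 1 to 4 of a group, and every panel spans the same range of log2 units. Fos minus Fosb, Fos minus Fosl1, Jun minus Junb and Junb minus Jund had no overlap, and the other 5 pairs did.

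The genes that rose were not ordered alike over the arrays. Knockout array 2 was the lowest knockout array for 6 of the 7 (the exception being Jund, lowest on array 3) and the highest for 0 of them. Knockout array 4 was highest for Fosl1, Jun and Jund, array 1 for Fosb and Atf3, and array 3 for Egr1 and Ier3. In wild type, array 4 was the lowest for 6 of the 10 members but the highest for Ier3. Knockout array 2 also had the highest mean of the 10 keratinocyte markers, at 0.29 over its average across arrays, and wild-type array 4 the lowest, at -0.63.

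Several marker lists moved with the genotype beside these genes. The keratinocyte mean was -0.63 to 0.01 in wild type and 0.13 to 0.29 in knockout, and 4 of its 10 markers rose (Krt5, Krt14, Dsg3 and Itga6). The list did not move as one, since Krt1 (-0.07), Krt10 (-0.17), Dsp (-0.13) and Perp (-0.21) were below 0 without passing. When 1 array was left out, 1 of them passed without knockout array 2, and 2 passed without knockout array 1, 3 or 4 or wild-type array 2 or 3. The macrophage mean was 0.27 to 1.12 in wild type and -0.67 to -0.33 in knockout, with 5 of 10 markers falling. Muscle, fibroblast, adipocyte and endothelial markers gave 0 calls in limma (1, 4, 0 and 1 genes at an unadjusted p under 0.05), with knockout means inside or below the wild-type range. Neutrophil markers (mean -0.05 to 0.25 in wild type, -0.17 to -0.03 in knockout) and T and NK cell markers (-0.13 to 0.10 and -0.15 to 0.06) overlapped between the groups and gave 0 calls (1 and 0 at an unadjusted p under 0.05), and 4 of 10 and 3 of 8 of them were below the 25th percentile of genes on every array.

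With the keratinocyte mean as a covariate, which itself separates the genotypes, 4 of the 7 rises passed. Jun changed by 1.12 (adjusted p = 0.031), Atf3 by 1.14 (0.040), Egr1 by 1.01 (0.039) and Ier3 by 1.06 (0.016). Fosb (0.68, adjusted p = 0.16), Fosl1 (0.60, 0.14) and Jund (0.52, 0.062) did not. In limma with this covariate 8 of the 10 members had an unadjusted p under 0.05, among them Fosl2 at -0.51. Over all genes 806 passed with it, against 1744 without. With the skeletal muscle mean as a covariate all 7 passed. The part of macrophage and other cells in the rises was not tested.

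**Figure D4:**
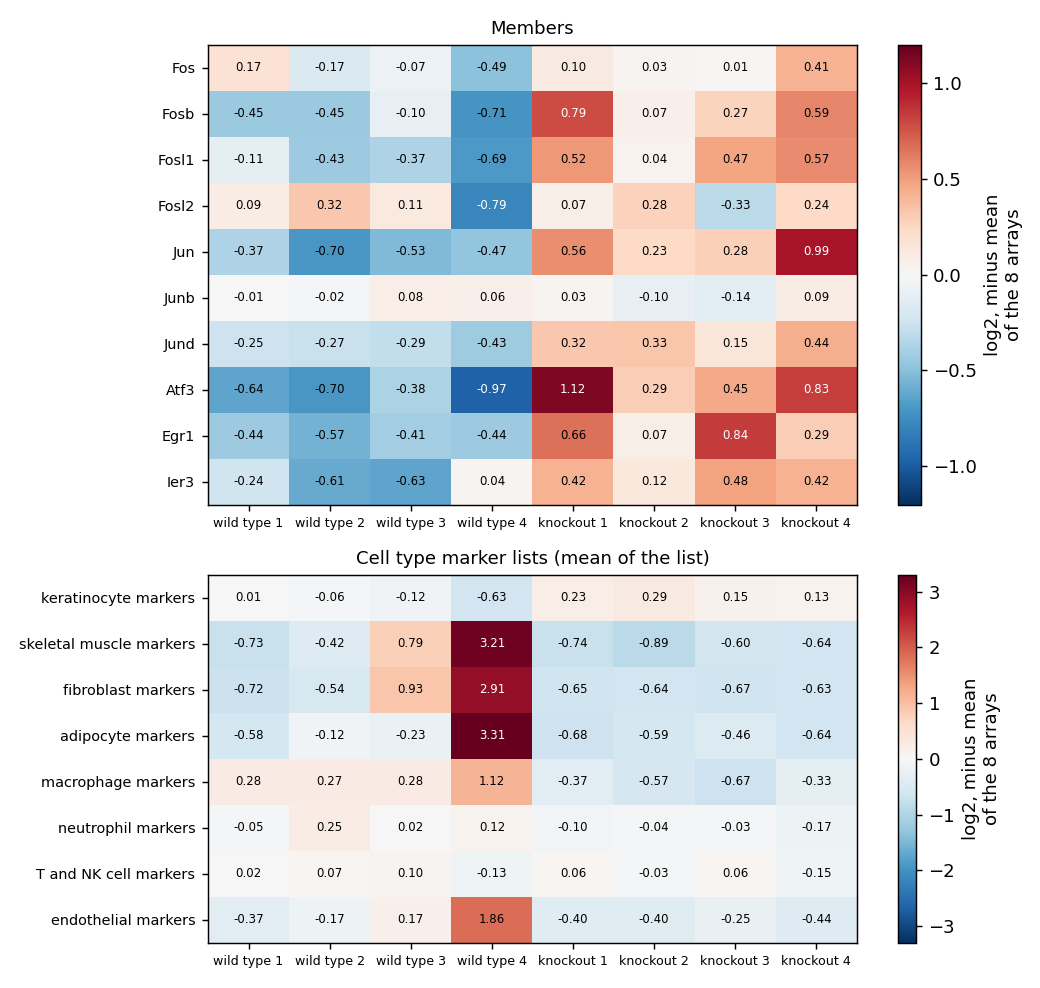
Log2 intensity of the 10 genes (top) and mean of each cell type marker list (bottom) on each of the 8 arrays, minus the mean of the 8 arrays, with the value in each cell; red is above and blue below that mean, on a wider colour scale in the lower panel. Wild-type array 4 stands out for muscle, fibroblast and adipocyte markers (3.21, 2.91 and 3.31).

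Other immediate early genes also gave rises. Of 37 measured 11 rose and 0 fell, with a median of 0.24. By comparison, 6.41% of all genes rose, and 12.0% of the brighter 9968, whose median change was 0.11. Ccn1, a matrix protein induced by serum and by mechanical load, read 7.11, 6.85, 7.16 and 7.12 in wild type and 8.35, 7.89, 8.21 and 8.85 in knockout, a rise of 1.26 (SE 0.18, adjusted p = 0.0043). Klf10, a zinc finger factor induced by TGF-beta, rose by 0.74 (adjusted p = 0.043) but lost its call in 7 of 8 fits with 1 array left out. The count of rises was 3 when knockout array 2, wild-type array 2 or wild-type array 3 was left out. It was 4, 5 and 7 when knockout arrays 1, 3 and 4 were left out in turn, and 5 when wild-type arrays 3 and 4 were both left out. Without knockout array 4, 1 of these genes fell. With the keratinocyte mean as a covariate the count of rises was 2. In that fit 12 of the 37 had an unadjusted p under 0.05 in limma, in either direction, against 17 without the covariate.

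Feedback inhibitors of MAPK signalling gave rises too. Of 18 measured 6 rose and 0 fell, with a median of 0.38 (4 to 6 rises with 1 array left out, 4 without each of knockout arrays 1 to 3 and wild-type arrays 2 and 3). The share that rose was 6.41% over all genes and 12.0% of the brighter 9968. Spred2, an inhibitor of Ras and Raf signalling, read 6.54, 6.32, 6.59 and 6.21 in wild type and 7.33, 7.55, 7.40 and 7.67 in knockout, a rise of 1.07 (SE 0.12, adjusted p = 0.0017). Dusp10, a phosphatase of the stress kinases p38 and JNK, rose from 4.78 ± 0.30 to 5.76 ± 0.11 (SD, n = 4, adjusted p = 0.0046). Both passed in all 8 fits with 1 array left out.

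Upstream, 4 of 21 measured MAPK pathway genes rose and 0 fell. Their median of 0.13 was close to the 0.11 of the brighter 9968 genes, of which 12.0% rose (6.41% of all genes). Srf, serum response factor, which binds the CArG box, rose by 0.65 (SE 0.12, adjusted p = 0.0093), and its partner Elk4 by 0.59 (adjusted p = 0.021). The kinase Map2k3, which activates p38, rose by 0.54 (adjusted p = 0.013), and Rps6ka5, a nuclear kinase below ERK and p38, by 0.39 (adjusted p = 0.042). Srf passed in all 8 fits with 1 array left out, Map2k3 failed without knockout array 2, Elk4 failed in 4 of the fits and Rps6ka5 in 7. The count was 1 without knockout array 2, 2 without knockout array 1 or 3 or wild-type array 3, and 1 without wild-type arrays 3 and 4. Without wild-type array 1, 2 upstream genes fell.

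Among 27 measured bZIP partners and relatives 5 rose and 0 fell. Their median of 0.10 was close to the 0.11 of the brighter 9968 genes, of which 12.0% rose (6.41% of all genes). Atf2, a stress kinase target that pairs with Jun, read 6.09, 5.77, 5.83 and 5.90 in wild type and 6.44, 6.62, 6.61 and 6.58 in knockout, a rise of 0.67 (SE 0.10, adjusted p = 0.0048). Creb5 (0.63), Atf7 (0.47), Creb1 (0.44) and Mafk (0.38) passed as well, and of the 5 only Atf2 passed in all 8 fits with 1 array left out. The count was 1 without knockout array 2 or 3, 2 without knockout array 4 or wild-type array 3, and 3 without knockout array 1, wild-type array 2 or both wild-type arrays 3 and 4. Of 4 C/EBP genes 0 passed in limma (1 at an unadjusted p under 0.05), the largest change being 0.53.

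Genes known as AP-1 targets gave the widest range. Of 32 measured 12 rose and 2 fell, with a median of 0.15. For all genes 6.41% rose and 2.34% fell, and of the brighter 9968, with a median of 0.11, 12.0% rose. Tslp, a keratinocyte cytokine, read 1.25, 1.65, 1.58 and 1.91 in wild type and 7.28, 6.27, 6.76 and 6.01 in knockout (adjusted p = 3.1e-05). Its wild-type values lay below the 25th percentile of genes on their arrays (2.90 to 3.03), so the size of that rise is uncertain. Sprr1a, a precursor of the cornified envelope, read 8.07, 7.17, 6.76 and 7.03 in wild type and 11.21, 10.88, 10.81 and 10.00 in knockout (adjusted p = 0.00075). The protease Casp14 changed by -0.75 (adjusted p = 0.026) and the angiogenic factor Vegfa by -0.70 (adjusted p = 0.024). Casp14 lost its call in 4 of 8 fits with 1 array left out and Vegfa in 5. By role, 4 of 10 differentiation genes, 3 of 11 matrix and invasion genes and 5 of 11 growth and inflammation genes rose. Without knockout array 2 the count of rises was 8, and with the keratinocyte mean as a covariate it was 5. Krt5 and Krt14, which rose, and Krt1 belong to both lists, so that covariate contains part of this list. With it 13 of the 32 had an unadjusted p under 0.05 in limma, in either direction, against 16 without it.

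Heat shock genes, which share with immediate early genes a response to the handling of tissue, gave 3 rises and 1 fall among 9 measured. Their median change was 0.33, against 0.0027 for all genes and 0.11 for the brighter 9968. The shares over all genes were 6.41% rising and 2.34% falling, and 12.0% of the brighter 9968 rose. Dnajb1 (0.53), Hspa1a (0.50) and Hsp90aa1 (0.49) rose, and Hsph1 changed by -0.46, losing its call in 7 of 8 fits with 1 array left out. Hspa1a lost its call without knockout array 2. With the keratinocyte mean as a covariate 0 of the 9 passed in limma, and 5 had an unadjusted p under 0.05. The part of handling in the rises of the AP-1 genes was not tested.

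**Figure D5:**
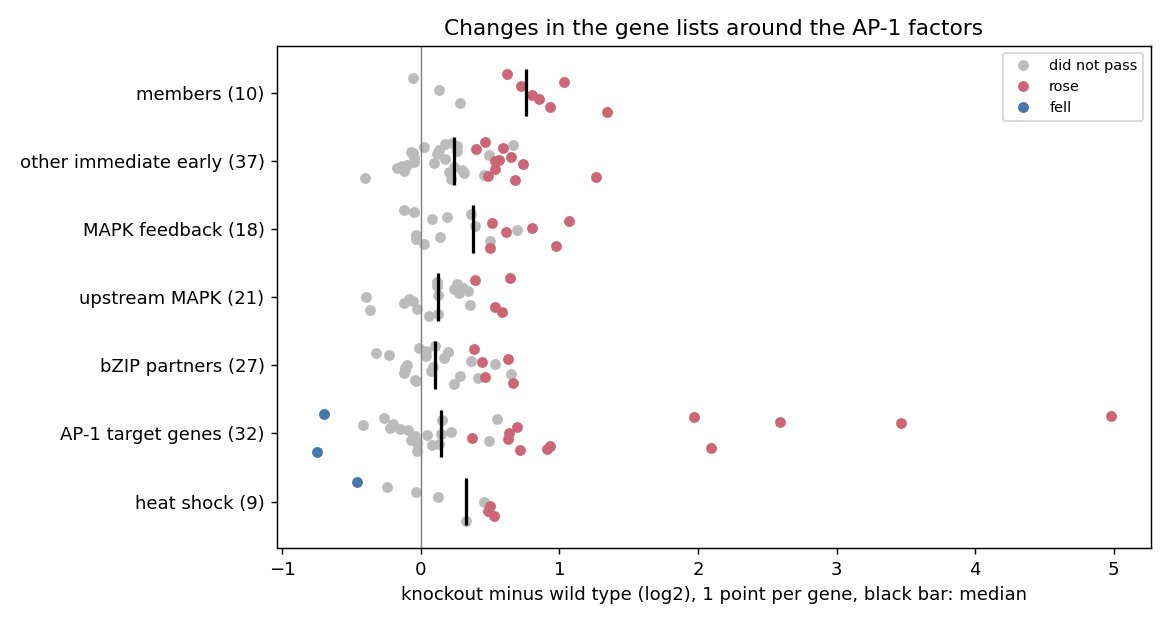
Log2 change (knockout minus wild type) of every measured gene of each list (number measured in parentheses), coloured by whether it rose, fell or did not pass in limma, with the list median as a black bar. The 10 members have a median of 0.76, the other immediate early genes 0.24, the MAPK feedback genes 0.38 and the heat shock genes 0.33.

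The genes closest to Atf3 in their pattern over the 8 arrays were taken by the root mean square difference after each gene was centred on its own mean. Fosb was the closest of all genes, at 0.25 log2 units, and Jun lay at 0.30 with 16 genes closer. Outside the members the 5 closest were Slc6a14 (an amino acid transporter, 0.25), Plet1 (a surface protein of epithelia, 0.25), Sema3d (a secreted semaphorin, 0.26), Ccn1 (0.26) and Prss23 (a serine protease, 0.26). Genes chosen for likeness to Atf3 on these arrays share its higher knockout values by that choice. Junb, at 0.74, had 9812 genes closer to Atf3.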

How the data were processed

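The deposited values are linear intensities, 1 per probe set and array, which the authors made with RMA, per the submitters' processing notes. This method corrects background, aligns probe distributions between arrays and summarises probes. For its version and settings and for the build, no source used here gives a value. Values ran from 0.817 to 11173, and log2 was taken with no pseudocount. Of 35519 probe sets, 21780 had exactly 1 gene symbol, 1605 several and 12134 none. Of several probe sets per gene the one with the highest mean was kept, which left 19935 genes.

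The genotypes were compared in limma 3.58.1 (R 4.3.3, lmFit and eBayes, two-sided tests). P-values were adjusted by Benjamini-Hochberg over the whole table, with a threshold of 0.05. Adjusted p-values are from limma unless named otherwise. Pairs of family members were compared with exact permutation tests over 70 assignments. Tested on simulated data with this comparison and 19935 genes, the fit recovered 34% of changes of 0.5, 82% of 1, 100% of 2 and 98% of 3 on the log2 scale, with 11 false calls among 168. The simulation changed 50 genes at each size and drew noise independently for each gene. In the real data 1744 genes passed and some arrays shared RNA of other tissue, so these rates may not hold there. Arrays give no depth, and their number limits the precision.

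The members, lists and alternatives were chosen with earlier results of these data known, and no set test was run. All 10 members are described. Of each other list, the 2 largest rises and falls that passed are named, and others where 5 or fewer passed. Listed genes without a probe set of exactly that symbol were not analysed here.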

Additional observations from a re-analysis of the deposited data

Results flagged for a closer look

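Of the 20 groups of 4 arrays formed by the 10 members and 2 genotypes, and the 18 formed by the 9 pairs, 1 held an array set apart by Dixon's criterion at the 95% level, which chance reaches in about 1 in 20 groups. Egr1 was 5.41 on wild-type array 2, below the 3 other wild-type arrays at 5.54 to 5.56. The gap is 0.840 of the range of that group, which is itself narrow (SD 0.070). All 4 knockout values of Egr1, from 6.05 to 6.81, lay above it.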

How the results depend on the processing

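No paired analysis was possible because the titles of the 2 groups share no replicate number. The 7 rises among the members passed under quantile normalization, median centring, cyclic loess and a filter on dim genes. They also passed after averaging the probe sets of a gene, with log2 of the value plus 16, the trended and robust prior, and array weights. The same held with the muscle covariate and with a Y chromosome covariate, the mean of Eif2s3y, Kdm5d and Uty. How sex was spread over the 2 groups is not described here. With 1 array left out 6 or 7 passed (all but Ier3 in the fits with 6), without wild-type arrays 3 and 4 together 6 (Fosl1 lost), and with the keratinocyte covariate 4. Fos was at -0.00031 with the keratinocyte covariate. Fosl2 was at -0.037 with array weights, -0.022 after cyclic loess, -0.51 and -0.24 with the keratinocyte and muscle covariates, -0.14 without wild-type arrays 3 and 4, and between -0.11 and 0.26 with 1 array left out. The difference Fosb minus Fosl1 ranged from -0.054 (wild-type array 1 left out) to 0.15 (wild-type array 3 left out), and was -0.028 when knockout array 1 was left out. The cause of these shifts was not tested. Over all genes 1744 passed, 73.2% of them higher. The count was 3621 with array weights, 806 with the keratinocyte covariate, 925 without wild-type arrays 3 and 4, and 587 to 1997 with 1 array left out. The higher share was 56.5% after quantile normalization and 50.8% after cyclic loess, where the 7 members still passed. Rises among the other immediate early genes (11) numbered 4 after quantile normalization, 3 after cyclic loess and 6 with the muscle covariate. Those among bZIP partners (5) numbered 2 in each of these and with the keratinocyte covariate, where 1 upstream gene rose and 0 of the 4 that rose without it passed. In pairs of family members 0 of 9 passed with all arrays or with 1 array left out. In these fits a pair that separated alone could not pass the adjustment. Without wild-type arrays 3 and 4 no pair could pass, because the smallest exact p is then 0.067.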
